A study of Mus musculus with 23 samples.

Results

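The cytosolic ribosomal protein genes were followed through the mouse mammary epithelium, from virgin mice through pregnancy to retired breeders. The genes were chosen by name alone: every gene whose symbol in the array annotation is a numbered Rps or Rpl name, or Rplp0, Rplp1, Rplp2 or Rpsa, with pseudogene names left out and with at least 1 probe set that lists no other gene. This gave 42 genes of 18193 named genes, 20 of the small ribosomal subunit and 22 of the large one. Each gene was represented by the brightest of its probe sets, judged by the mean of the 23 arrays, and 1 probe set is a group of short probes aimed at the same transcript. Another 27 names of the same kind, among them Rpl10, Rpl13, Rpl5 and Rplp1, appeared on probe sets shared between several symbols and were not used. The mice were females of the inbred strain C57BL/6. Epithelial cells were purified from their mammary glands, and the mRNA was captured on magnetic beads before labelling. The stages were virgin mice of 3 and 9 weeks, mice at days 10, 16 and 19 of pregnancy, and retired breeders, whose age the labels do not give, so parity and age cannot be told apart there. Mature luminal cells, the hormone-sensing and secretory lining, were sampled at all stages. Luminal progenitors and the preparation labelled stem cells were sampled at all but day 19. Of the 16 groups, 7 had 2 arrays and 9 had 1. The labels name no engineered allele and no treatment. They do not describe the sorting gates and do not say whether arrays of a group came from separate or pooled animals. The p-values therefore measure the spread between these arrays, which may be technical.

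The cytosolic ribosome translates the mRNAs of the nucleus and is built from a small subunit, which reads the message, and a large subunit, which joins amino acids. Its proteins are needed in nearly equal amounts, and their genes are among the most strongly transcribed in most cells. Their mRNAs begin with a run of pyrimidines, the 5′ terminal oligopyrimidine or TOP motif, through which growth signals acting on mTOR control their translation, so protein output can change while the amount of mRNA stays similar. In the mammary gland, secretory cells expand their capacity for protein synthesis during pregnancy and lactation.

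To show the pyrimidines near the start, 60 bases around the annotated start were taken for the 8 genes that had an unadjusted p under 0.05 in any comparison, from 40 bases before the start to 20 after it. The sequences are RefSeq's for GRCm38.p6, read 5′ to 3′ on the strand of the gene, and the capitals mark the longest run of C and T in the window, or both where 2 runs tie.
Rpl12: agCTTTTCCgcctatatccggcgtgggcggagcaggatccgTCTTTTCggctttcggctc
Rpl14: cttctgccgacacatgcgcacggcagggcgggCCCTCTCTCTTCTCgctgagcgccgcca
Rplp0: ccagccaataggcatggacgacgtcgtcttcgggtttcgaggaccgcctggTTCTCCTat
Rps10: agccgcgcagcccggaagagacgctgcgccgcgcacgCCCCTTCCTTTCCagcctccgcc
Rps25: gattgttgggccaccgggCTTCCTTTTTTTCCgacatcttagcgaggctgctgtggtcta
Rps26: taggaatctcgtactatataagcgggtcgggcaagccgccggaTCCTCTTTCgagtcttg
Rps4x: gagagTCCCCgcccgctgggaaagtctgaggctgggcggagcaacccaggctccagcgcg
Rps6: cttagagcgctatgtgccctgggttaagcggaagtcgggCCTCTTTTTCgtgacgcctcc
These windows lie at chr2:32961672-32961731 on the plus strand for Rpl12, chr9:120571477-120571536 on the plus strand for Rpl14, chr5:115559427-115559486 on the plus strand for Rplp0 and chr17:27635225-27635284 on the minus strand for Rps10. Those of the other genes lie at chr9:44407674-44407733 on the plus strand for Rps25, chr10:128626487-128626546 on the minus strand for Rps26, chrX:102189372-102189431 on the minus strand for Rps4x and chr4:86857348-86857407 on the minus strand for Rps6. The longest run had 14 bases in Rpl14 and Rps25, 13 in Rps10, 10 in Rps6, 9 in Rps26, 7 in Rpl12 and Rplp0 and 5 in Rps4x. Counting the annotated start as base 1 and the base before it as -1, the run spanned the start in Rpl14 (-8 to 6), Rps10 (-3 to 10) and Rps6 (-1 to 9), and lay just past it in Rps26 (4 to 12). It lay away from the start in Rplp0 (12 to 18), Rps25 (-22 to -9) and Rps4x (-35 to -31), and Rpl12 had 1 run upstream (-38 to -32) and 1 of equal length near the start (2 to 8). A promoter entry was found for 37 of the 42 genes. A run of at least 8 pyrimidines lay within this window in 22 of the 37 (59.5%), against 27.2% of 27025 genes. Over the full 300 bases, searched on both strands, CTTCCG was present in 27 of the 37 (73.0%), against 18.8% of all genes. GGGCGG, likewise on both strands, was present in 21 (56.8%), against 38.2% of all genes. TATAAA was present in 5 (13.5%), against 15.7% of all genes. CTTCCG contains a short stretch of pyrimidines and can overlap the run. These counts describe letters in the reference and were not tested.

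The authors deposited log2 values between 0 and 14.28, and the array medians lay between 4.51 and 5.47. Basal keratin and smooth muscle genes marked the stem preparations: against stem cells, 7 of 10 were lower in luminal progenitors (3.6% of all genes were) and 9 of 10 in mature luminal cells (6.78% of all genes were), by limma with Benjamini-Hochberg adjustment at 0.05. Endothelial markers did so too, with 3 of 8 lower in luminal progenitors and 5 of 8 in mature luminal cells. Their mean log2 value reached 11.27 on the stem arrays, against 7.86 and 7.92 at most in the luminal types. Of 8 fibroblast markers, 0 were lower in luminal progenitors and 4 in mature luminal cells. The part of these markers in the comparisons with stem cells was not tested. Between mature luminal cells and luminal progenitors 0 of 7 mature luminal and 1 of 7 progenitor markers passed, against 0.124% of all genes. With so few calls, these counts do not show how well the luminal labels were separated. Differences were positive for 4 of the 7 mature luminal markers and for 0 of the 7 progenitor markers. The basal keratin Krt14 read 12.77 on the 3-week mature luminal array and 12.88 on replicate 1 of the 9-week mature luminal cells, against 12.13 to 13.41 in the stem preparations. The mean log2 value of all 10 basal markers was 9.49 and 8.71 on these arrays, below the 9.94 to 12.8 of the stem preparations. Control probe sets at both ends of Gapdh, a glycolysis gene, give a measure that is sensitive to RNA quality. The excess of the 3′ over the 5′ signal stood apart in the 3-week mature luminal cells (5.16) and in the stem cells of retired breeders (3.77), while the other 21 arrays had 0.87 to 2.72. The same excess for Actb was also highest on these 2 arrays, at 4.06 and 3.1. For the transferrin receptor it was 2.83 and 2.36 there, inside the range of 1.75 to 4.57 over all arrays, so the controls differed. Results that rest on these 2 arrays are also given without them. Without both, the median difference of the ribosomal protein genes was 0.07 for luminal progenitors minus stem cells, 0.12 for mature luminal minus stem cells and 0.10 for mature luminal cells minus luminal progenitors.

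Most ribosomal protein genes gave high signals in every cell type and stage. Of the 42 genes, 34 had a mean above 12 on the log2 scale, near the top of the arrays, whose highest values were 14.09 to 14.28. Another 4 genes, Rpl12, Rpl14, Rps25 and Rps6, lay between 9 and 12, and 4 lay below 9, namely Rps27, Rpl37, Rpl39 and Rps16. These levels belong to probe sets and do not rank the genes, since probes bind with different strength. Genes were tested only when 2 or more arrays had them above the array's own 40th percentile, and 41 of the 42 passed. Rps16, a small-subunit protein, did not pass: its values ran from 0 to 2.11, and it was listed at 0 on 3 arrays.

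The mean of the 41 genes ran from 12.135 on the 3-week mature luminal array to 12.705 on replicate 1 of the 9-week luminal progenitors. In mature luminal cells it was 12.135 at 3 weeks, 12.671 and 12.462 at 9 weeks, 12.669 and 12.639 at day 10, 12.503 at day 16, 12.548 at day 19 and 12.613 in retired breeders. In luminal progenitors it was 12.643 and 12.449 at 3 weeks, 12.705 and 12.496 at 9 weeks, 12.409 at day 10, 12.609 at day 16 and 12.498 in retired breeders. In stem cells it was 12.608 and 12.304 at 3 weeks, 12.657 and 12.522 at 9 weeks, 12.488 and 12.592 at day 10, 12.440 at day 16 and 12.438 in retired breeders. The ranges of the cell types overlapped, and so did those of the stages. The SD between replicates was 0.133, pooled over the 7 groups with 2 arrays. In whole samples of purified cells, a smaller share of cells with the mRNA and less mRNA per cell cannot be told apart.

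**Figure D1:**
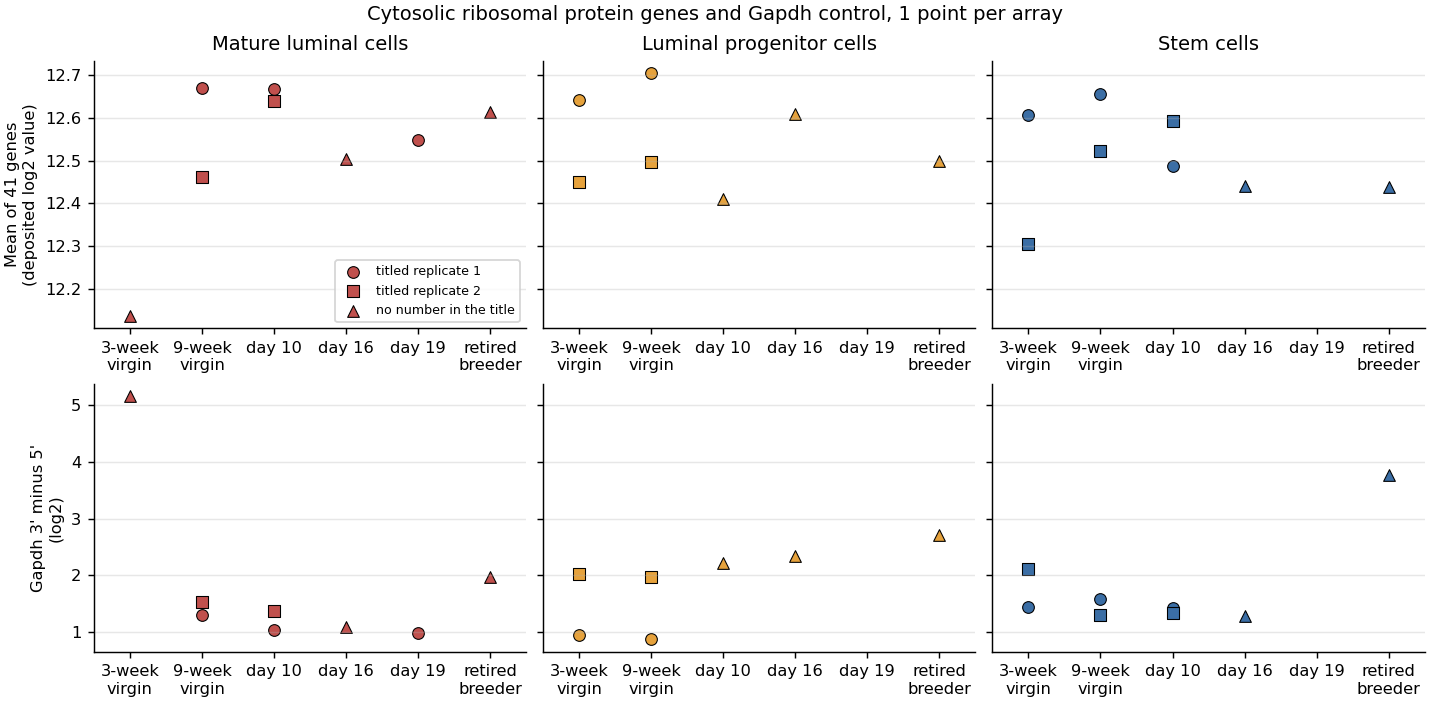
Mean deposited log2 value of the 41 genes (upper panels) and the excess of 3′ over 5′ Gapdh signal in log2 units (lower panels), by cell type and stage, with 1 point per array and the marker shape giving the number in the array title. The 3-week mature luminal array has the lowest mean, 12.135, and the highest Gapdh excess, 5.16.

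The genes differed in how much they varied. The 4 steadiest were Rps20, Rpl37a, Rps29 and Rps28. Rps20, a protein of the small-subunit head, stayed between 13.62 and 13.90 over all 23 arrays, and its group means spanned 0.245. Rpl37a, a zinc-finger protein of the large subunit, stayed between 13.46 and 13.75, and Rps29, a small zinc-binding protein of the small subunit, between 13.81 and 14.10. Rps28, also of the small subunit, stayed between 13.76 and 14.13. The 6 with the widest span of group means were Rpl37 (2.68), Rps25 (2.34), Rpl39 (2.13), Rpl12 (2.01), Rps27 (1.865) and Rplp0 (1.85). Of these, Rplp0 alone had a high level: it ran from 11.66 to 13.66 around a median of 12.88, and it encodes P0, the base of the stalk that recruits elongation factors. Rpl19, also at a high level with a mean of 12.903, tied with Rplp0 at a span of 1.85. For 28 of the 41 genes the group means spanned less than 1.

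**Figure D2:**
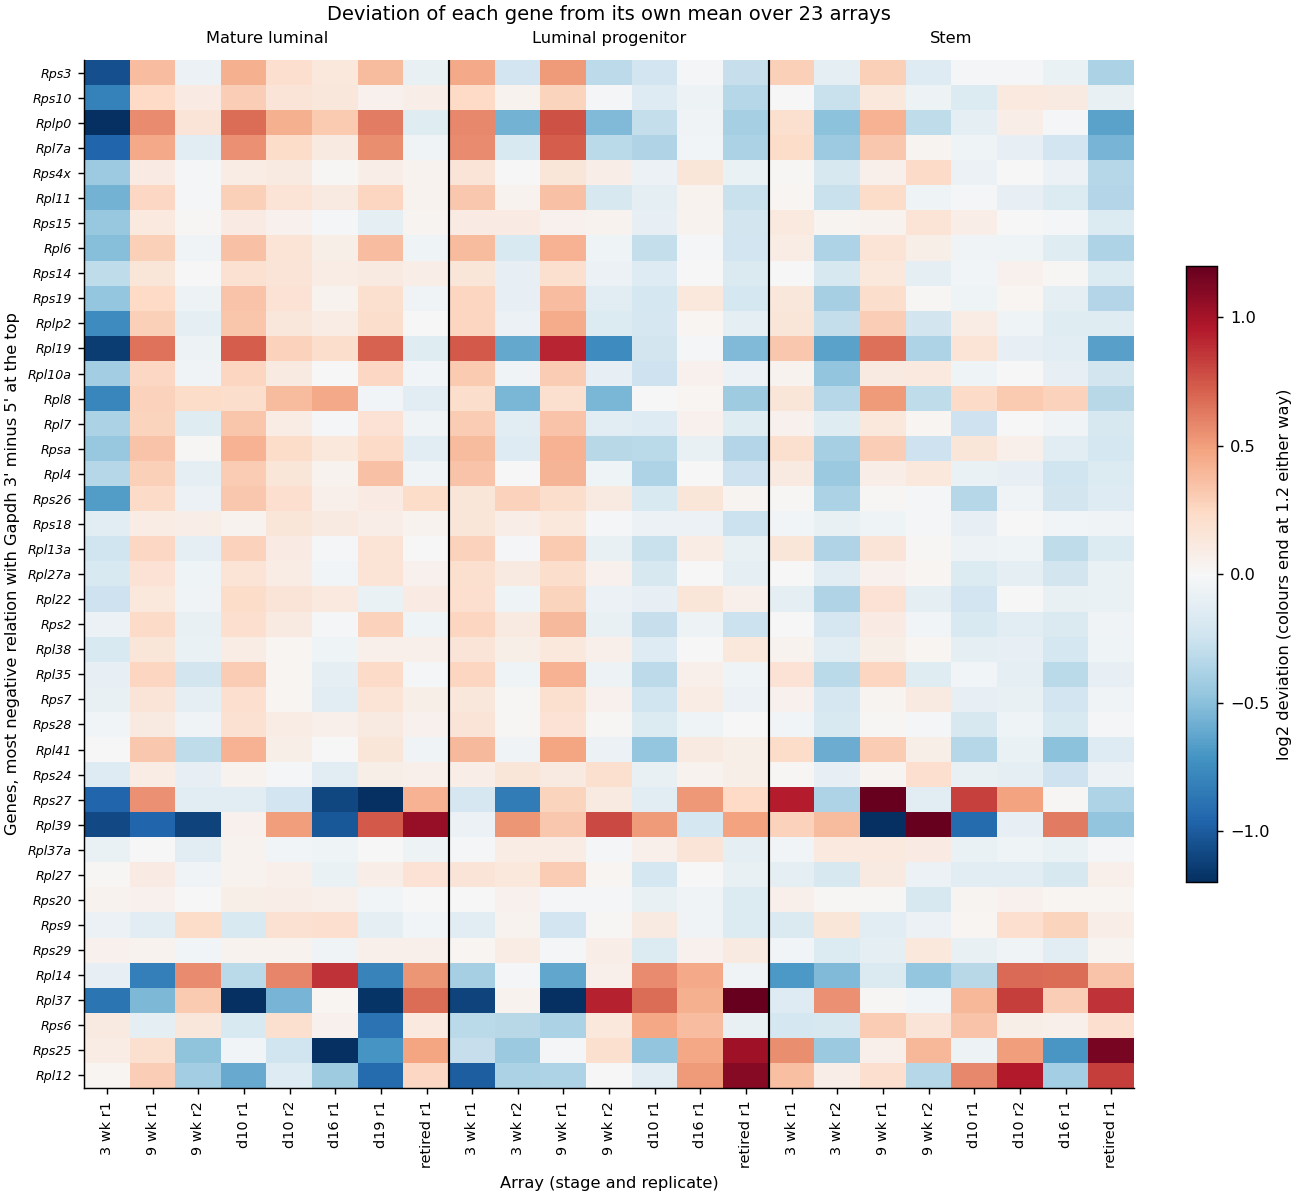
Deviation of each of the 41 genes from its own mean over the 23 arrays, in log2 units, with arrays ordered by cell type and stage and genes ordered by their correlation with the Gapdh excess. Most genes of the upper part are low on the 3-week mature luminal array and high on arrays titled replicate 1, while Rpl14, Rpl37, Rps6, Rps25 and Rpl12 at the bottom vary in other ways.

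The span of a probe set went with its level. The 94 probe sets of the 42 genes included 46 with a mean above 13, whose values spanned a median of 0.67 over the arrays. The 28 with means from 9 to 13 spanned a median of 1.545, and the 20 at or below 9 a median of 2.9. Different probe sets of a gene could disagree, as the following genes show, which were picked after their values were seen. Rps9, a small-subunit protein that in yeast helps keep decoding accurate, spanned 0.50 on the probe set used here and 2.67 on another with a mean of 12.938. On the 3-week mature luminal array these 2 probe sets read 13.37 and 11.08. Rps18, a protein of the small-subunit head often used as a reference gene, spanned 0.40 on the probe set used and 1.64 on its next, with 13.37 and 11.92 on the same array. Rps10, which lies near the mRNA entry of the small subunit, was measured by 6 probe sets, of which 5 had means above 12 and were lowest on that array, at 12.73 or below. Of the 42 probe sets used, 16 ended in _x_at and 1 in _s_at, suffixes for probes that can also match other transcripts, and 14 in _a_at, for probes matching several transcripts of 1 gene. Ribosomal protein genes have many near-identical processed pseudogenes, so part of such signals could come from copies, and their part was not tested.

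**Figure D3:**
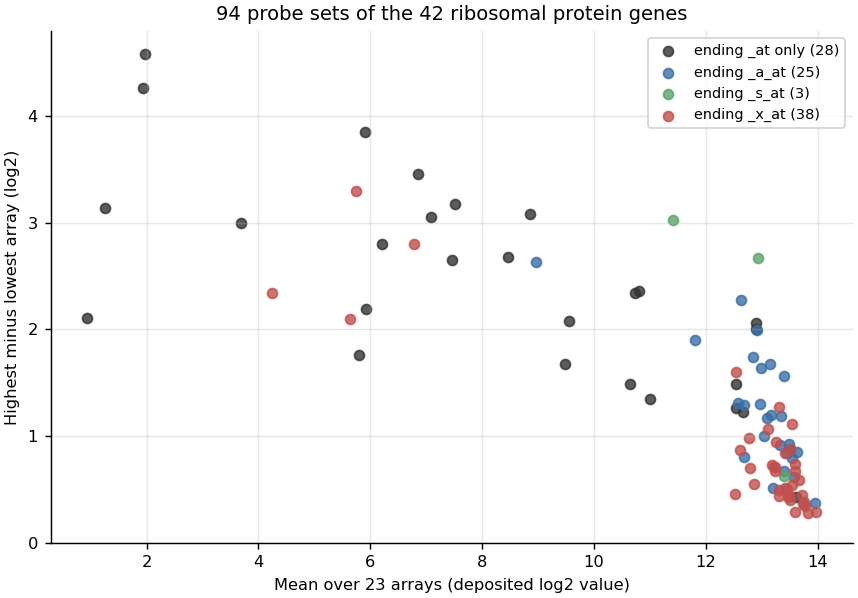
Span of each of the 94 probe sets over the 23 arrays (highest minus lowest log2 value) against its mean, coloured by the ending of its identifier. The median span was 0.67 above a mean of 13 and 2.9 at or below 9.

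The mean of the 41 genes went down as the Gapdh excess went up, with a Pearson r of -0.726 and a Spearman rho of -0.597 over 23 arrays. Without the 3-week mature luminal and the retired breeder stem arrays, the 2 farthest from the median excess, r was -0.47 and rho -0.48 over 21 arrays. Among the 8 arrays titled replicate 1, r was -0.288 and rho -0.333, and among the other 15, r was -0.675 and rho -0.45. Those 15 without the 2 farthest gave r of -0.192 and rho of -0.193. Within cell types, r was -0.402 in stem cells, -0.714 in luminal progenitors and -0.876 in mature luminal cells. The matching rho was weaker, at -0.214, -0.464 and -0.429, and the mature luminal arrays include the 3-week array with the highest excess. Against the array median, the mean of the 41 genes had an r of -0.741 and a rho of -0.692 over the 23 arrays. The array median itself went up with the Gapdh excess (r of 0.737, rho of 0.711), and the part of each was not tested. All points share the arrays' scaling and, within a group, the preparation. The correlation of single genes with the Gapdh excess was negative for 34 of 41 and under -0.5 for 20. It was most negative for Rps3 (-0.869), a protein at the mRNA entry also known for a role in DNA repair, and then for Rps10 (-0.845), Rplp0 (-0.833) and Rpl7a (-0.822), a large-subunit protein. It was positive for Rpl12 (0.429), a stalk-base protein of the large subunit, for Rps25 (0.406), and for Rps6 (0.319), the ribosomal substrate of S6 kinase.

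**Figure D4:**
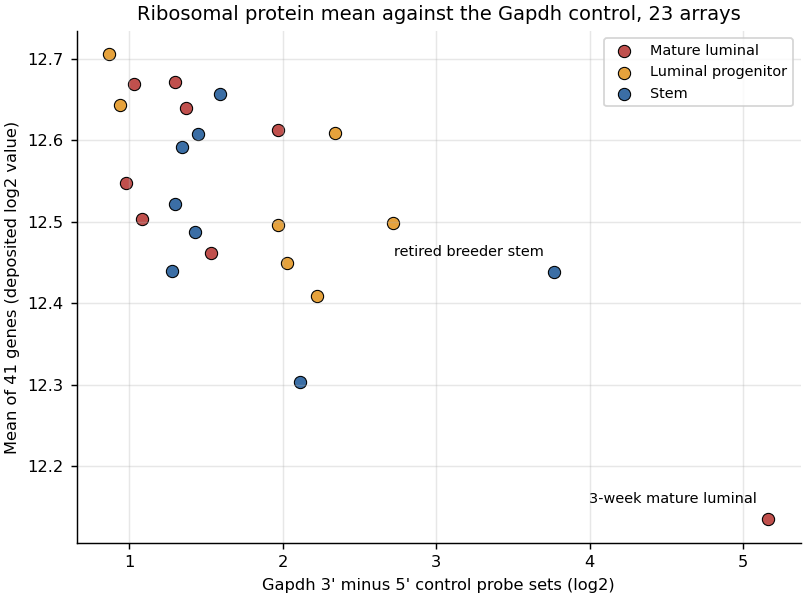
Mean deposited log2 value of the 41 genes against the excess of 3′ over 5′ Gapdh signal in log2 units, with 1 point per array coloured by cell type. The 3-week mature luminal array lies apart at 5.16 and 12.135, and the retired breeder stem array at 3.77 and 12.438.

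The genes also differed by the number in the array titles. The median of the 41 genes was lower in replicate 2 than in replicate 1 in 6 of the 7 groups with 2 arrays, by 0.09 to 0.27. In day-10 stem cells it was 0.05 higher. In 9-week mature luminal cells 37 of the 41 genes were lower in replicate 2, in 3-week stem cells 35, and in 9-week luminal progenitors 31. Over all genes the median difference between these replicates ran from -0.20 to 0.15. The main model had no term for this number, so the difference between replicates is part of the spread behind its standard errors. Across the arrays, 19 of the 41 genes had their highest value on replicate 1 of the 9-week luminal progenitors, and 16 had their lowest on the 3-week mature luminal array.

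In luminal progenitors compared with stem cells, averaged over 5 stages, 0 of 41 ribosomal protein genes passed, against 4.38% of the 15378 genes tested (limma, Benjamini-Hochberg adjusted p under 0.05). At an unadjusted p under 0.05 the count was also 0, against 18.9% of all genes. The median difference of the 41 genes was 0.06, against -0.04 for all genes, and the lowest adjusted p was 0.335. The median was 0.07 for the 22 large-subunit genes, of which 19 had positive differences, and 0.00 for the 19 small-subunit genes, of which 9 did. Rps26, which lines the mRNA exit channel, lay between 12.85 and 13.31 in luminal progenitors with a median of 13.18, against 12.65 to 13.05 in stem cells with a median of 12.935. The 2 ranges overlapped, and the difference was 0.22 ± 0.12 (SE, limma, adjusted p = 0.335). Differences for 39 of the 41 genes had 95% intervals within 1 log2 unit of 0, and 30 had intervals within 0.5.

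Mature luminal cells compared with stem cells, again over 5 stages, gave 0 of 41 genes past the threshold by limma, against 8.34% of all genes. At an unadjusted p under 0.05 there were 0 of 41, against 22.2% of all genes. The median difference was 0.07, against 0.03 for all genes. Rps28, among the steadiest genes, had a difference of 0.14 ± 0.09 (SE, limma, adjusted p = 0.397). Rpl22, which besides its place in the large subunit is known for binding RNAs in lymphocyte development, averaged 13.441 in mature luminal cells and 13.303 in stem cells. Rps25, known for its part in internal initiation on some viral RNAs, ran from 9.52 to 11.20 in mature luminal cells, against 10.03 to 11.86 in stem cells. Its difference of -0.37 ± 0.22 (SE) did not pass (limma, adjusted p = 0.364), and neither did that of Rpl12 (-0.39 ± 0.24, adjusted p = 0.384). Read from the 21 genes with a probe set ending plainly in _at, the median difference was -0.22.

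Between mature luminal cells and luminal progenitors, 0 of 41 genes passed by limma, with 0.124% of all genes called. At an unadjusted p under 0.05 there were 0 of 41, against 4.72% of all genes. The median difference was 0.00, with 21 genes positive and 20 negative. Rpl39, a tiny protein in the wall of the peptide exit tunnel, differed by -0.68 ± 0.51 (SE, limma, adjusted p = 0.9998). Its probe set was dim, from 2.57 to 4.73 in mature luminal cells and from 3.47 to 4.48 in luminal progenitors, with the ranges overlapping. With values below the array median raised to it, the difference was -0.03, so its size cannot be read from this probe set.

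The stage comparisons all use the 9-week virgin arrays and so share them, as the comparisons with stem cells share the stem arrays. Pregnancy, as the mean of days 10 and 16 over the 3 cell types, was compared with 9-week virgins, a contrast in which 7 of 8 milk genes rose. Of the 41 ribosomal protein genes 0 passed (limma), against 7.13% of all genes called (3.77% higher and 3.36% lower). An unadjusted p under 0.05 was found for 1 of the 41, against 25% of all genes. Differences were negative for 33 genes and positive for 8, with a median of -0.09, against 0.10 for all genes. The median was -0.08 in the small subunit and -0.10 in the large one. Its direction depended on the scaling, since after quantile normalization it was 0.03. Leaving out 1 array gave -0.17 without replicate 2 and -0.04 without replicate 1 of the 9-week luminal progenitors. Intervals of 37 genes lay within 1 log2 unit of 0 and those of 29 within 0.5.

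Rpl14, a large-subunit protein, was the gene with that unadjusted p. On the 8 pregnant arrays it ran from 9.15 to 10.35 with a median of 10.06, against 8.67 to 10.05 on the 6 arrays of 9-week virgins with a median of 9.165. Most pregnant arrays were above most virgin ones, but the ranges overlapped. The difference was 0.72 ± 0.31 (SE; limma, unadjusted p = 0.0387, adjusted p = 0.175). The values split by array number in most groups. In replicates 1 and 2, day-10 mature luminal cells had 9.16 and 10.07, and day-10 stem cells 9.15 and 10.17. In the same order, 9-week mature luminal cells had 8.67 and 10.05, and 9-week luminal progenitors 8.86 and 9.55. The 9-week stem cells went the other way, with 9.31 and 9.02. The other pregnant arrays have no number in their titles. Stage and array number are therefore partly confounded in this difference. Rps24, a small-subunit protein whose human gene is mutated in some families with Diamond-Blackfan anaemia, ran from 13.46 to 13.75 in pregnancy with a median of 13.62, against 13.61 to 13.91 in 9-week virgins with a median of 13.81. Its difference was -0.18 ± 0.09 (SE, limma, adjusted p = 0.242). Rps9 differed by 0.17 ± 0.12 and Rpl27a, a large-subunit protein, by -0.15 ± 0.09 (SE, limma, adjusted p = 0.412 and 0.333).

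Within single cell types pregnancy also gave no call among the 41 genes by limma. In stem cells 0 passed, with 0.26% of all genes called. An unadjusted p under 0.05 was found for 0 of the 41, against 12.1% of all genes. The median difference there was -0.18, against 0.13 for all genes, and 32 genes were negative. After quantile normalization the median was -0.02. The mean log2 value of 8 endothelial markers was 5.64, 6.04 and 6.63 on the pregnant stem arrays, against 9.47 and 9.46 on the 9-week ones, with 0 of 8 past the threshold, and their part in the result was not tested. Rpl41, the smallest ribosomal protein, read 12.76 and 13.03 at day 10 and 12.61 at day 16, against 13.41 and 13.18 in 9-week stem cells. Other members, such as Rpl4, Rpl27a and Rps24, were likewise lower on every pregnant stem array than on both 9-week ones. Such separation was not counted over the 41 genes or over all genes. The difference of Rpl41 was -0.54 ± 0.30 (SE, limma, adjusted p = 0.504), and another of its probe sets with a mean of 10.800 correlated with the Gapdh excess in the opposite direction (0.551 against -0.259).

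In luminal progenitors 0 of 41 genes passed (limma), with 0.156% of all genes called. An unadjusted p under 0.05 was found for 0 of the 41, against 12.8% of all genes. The median difference was -0.17, against 0.24 for all genes. Rps6 read 11.46 at day 10 and 11.37 at day 16, against 10.62 and 11.12 in 9-week progenitors, a difference of 0.55 ± 0.31 (SE, adjusted p = 0.475, limma). Rpl4 and Rps2, proteins of the large and the small subunit, differed by -0.36 ± 0.24 and -0.32 ± 0.21 (SE, limma, adjusted p = 0.543 and 0.541). Markers of other cell types moved with this contrast, with 0 of each list below past the threshold. The mean log2 value of 10 basal markers was 10.06 and 11.16 on the pregnant progenitor arrays, against 8.13 and 7.40 on the 9-week ones. That of 8 fibroblast markers was 9.77 and 10.45 in pregnancy, against 7.001 and 6.828 at 9 weeks, and that of 8 endothelial markers was 7.07 and 7.86 in pregnancy, against 6.30 and 5.12 at 9 weeks. The mean log2 value of 11 leukocyte markers was 8.52 and 8.07 on the pregnant progenitor arrays, against 4.56 and 6.38 on the 9-week ones, and 0 of 11 passed. The median of the ribosomal protein genes was 0.03 after quantile normalization, 0.06 with the Gapdh excess as a covariate and -0.32 with each array centred on its median. The part of these markers in the result was not tested.

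In mature luminal cells 0 of 41 genes passed (limma), with 2.25% of all genes called. An unadjusted p under 0.05 was found for 0 of the 41, against 12.8% of all genes. The median difference was 0.04, against -0.08 for all genes, and 28 genes were positive. The median was -0.12 without replicate 2 of the 9-week group. Rps27, a zinc-finger protein of the small subunit, read 7.32 and 7.23 at day 10 and 6.37 at day 16, against 8.01 and 7.32 in 9-week cells, a difference of -0.84 ± 0.61 (SE, limma, adjusted p = 0.693). The pregnancy effect in mature luminal cells minus that in stem cells was tested as an interaction. Of the 41 genes 0 passed (limma), with 0.013% of all genes called. An unadjusted p under 0.05 was found for 0 of the 41, against 5.86% of all genes. The interaction had a median of 0.19 over the 41 genes, against -0.20 for all genes, and 33 genes were positive. After quantile normalization that median was 0.04. Rpl41 had an interaction of 0.66 ± 0.43 (SE, limma, adjusted p = 0.959).

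The day-19 array, late in pregnancy, was set against 9-week virgin mature luminal cells. Of the 41 genes 0 passed (limma), with 1.14% of all genes called. An unadjusted p under 0.05 was found for 1, Rps6, against 11.1% of all genes. Rps6 read 10.11 at day 19, its lowest value of the 23 arrays, against 10.88 and 11.13 in 9-week cells. The difference was -0.90 ± 0.38 (SE; limma, unadjusted p = 0.0351, adjusted p = 0.395) and rests on 1 day-19 array. In the same cells Rps6 read 10.81 and 11.19 at day 10 and 11.05 at day 16. Rps27 read 6.25 at day 19, also its lowest value, against 8.01 and 7.32 at 9 weeks. Rpl39 read 4.42 at day 19, against 2.73 and 2.57 at 9 weeks, a difference of 1.77 ± 1.10 on a dim probe set (SE, limma, adjusted p = 0.650). With values below the array median raised to it, that difference was -0.22. The median over the 41 genes was 0.08, against -0.24 for all genes. It was -0.09 after quantile normalization, -0.15 on probe sets ending plainly in _at and 0.30 with each array centred on its median. The mean log2 value of 9 proliferation genes was 7.01 at day 19, against 7.82 and 8.43 at 9 weeks, with 0 of 9 past the threshold, and its part in the result was not tested.

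In 3-week virgins compared with 9-week virgins, over the 3 cell types, 38 of the 41 genes had negative differences, with a median of -0.17 against 0.11 for all genes. By limma 0 of the 41 passed, against 0.176% of all genes called. At an unadjusted p under 0.05 there were 4 of the 41, against 10.9% of all genes. Rps10 read 13.55 and 13.27 in 3-week stem cells, 13.78 and 13.58 in 3-week luminal progenitors and 12.73 in 3-week mature luminal cells. In 9-week virgins it read 13.67 and 13.48 in stem cells, 13.81 and 13.53 in luminal progenitors and 13.78 and 13.64 in mature luminal cells. The mature luminal value was the low one at 3 weeks. Its difference was -0.38 ± 0.12 (SE; limma, unadjusted p = 0.00939, adjusted p = 0.252).

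The other 3 genes with an unadjusted p under 0.05 had the same low array. Rplp0 ran from 11.66 to 13.47 at 3 weeks with a median of 12.40, against 12.37 to 13.66 at 9 weeks with a median of 13.18, a difference of -0.64 ± 0.29 (SE, limma, adjusted p = 0.447). Rps26 ran from 12.36 to 13.31 at 3 weeks, against 12.96 to 13.26 at 9 weeks, a difference of -0.29 ± 0.13 (SE, limma, adjusted p = 0.455). Rps4x, the small-subunit protein encoded on the X chromosome, ran from 12.96 to 13.55 at 3 weeks, against 13.37 to 13.63 at 9 weeks, a difference of -0.25 ± 0.11 (SE, limma, adjusted p = 0.426). For each of these genes the lowest 3-week value was that of the mature luminal array, on which the Gapdh excess was 5.16. Without that array and the retired breeder stem array the difference was -0.08 for Rps10, -0.16 for Rplp0, -0.06 for Rps26 and -0.14 for Rps4x, and the median over the 41 genes was -0.09. With the Gapdh excess as a covariate it was 0.16, and with each array centred on its median it was -0.50.

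Markers of blood, immune, endothelial and fibroblast cells also moved with this contrast. Hbb-b2, a beta globin of red cells, ran from 8.19 to 13.09 at 3 weeks, against 3.65 to 6.26 at 9 weeks, and rose by 6.74 ± 1.14 (SE, limma, adjusted p = 0.0484), the 1 called of 3 erythroid markers tested, with 0.163% of all genes higher. Hba-a1, an alpha globin, ran from 0.00 to 1.96 at 3 weeks, against 0.00 to 1.09 at 9 weeks. The summed log2 values of the 4 measured erythroid markers were 13.9 to 27.9 at 3 weeks and 7.6 to 12.5 at 9 weeks. Those of 11 leukocyte markers were 44.4 to 99.0 at 3 weeks and 50.2 to 70.1 at 9 weeks, highest on the 3-week mature luminal array, with 0 of 11 called. Those of 8 endothelial markers were 54.2 to 90.2 at 3 weeks and 40.9 to 75.7 at 9 weeks, with all 8 differences positive and 1 called, Plvap, which rose by 1.95 ± 0.33 (SE, limma, adjusted p = 0.0484). Those of 8 fibroblast markers were 59.8 to 71.7 at 3 weeks and 33.1 to 65.6 at 9 weeks, with 0 of 8 called. The part of these markers in the ribosomal protein result was not tested.

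In retired breeders compared with 9-week virgins, each cell type had 1 retired breeder array and 2 arrays of the 9-week stage. Of the 41 genes 0 passed (limma), with 0.0065% of all genes called. An unadjusted p under 0.05 was found for 2 of the 41, against 7.24% of all genes. The median difference was -0.14, against 0.21 for all genes, and 33 genes were negative. The retired breeder arrays have no replicate number in their titles, while each 9-week pair has 1 array titled replicate 1. In most pairs the genes read higher on replicate 1, so stage and array number are partly confounded in this contrast. Rps25 read 11.20 in mature luminal cells, 11.74 in luminal progenitors and 11.86 in stem cells of retired breeders. In 9-week virgins it read 10.92 and 10.24 in mature luminal cells, 10.70 and 10.92 in luminal progenitors, and 10.79 and 11.12 in stem cells. Every retired breeder value lay above every 9-week value, which held for 1 of the 41 genes. Such separation was not counted over all genes, of which 64.2% had positive differences in this contrast. The difference was 0.82 ± 0.29 (SE; limma, unadjusted p = 0.0147, adjusted p = 0.661). Rpl12 ran from 9.81 to 10.65 in retired breeders, against 9.14 to 9.85 in 9-week virgins, and differed by 0.83 ± 0.31 (SE; limma, unadjusted p = 0.0201, adjusted p = 0.663).

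On the negative side of this contrast stood Rpl7a and Rpl6, both of the large subunit. Rpl7a ran from 12.58 to 13.10 in retired breeders, against 12.82 to 13.87 in 9-week virgins, a difference of -0.51 ± 0.26 (SE, limma, adjusted p = 0.674). Rpl6 ran from 13.11 to 13.43 in retired breeders, against 13.43 to 13.90 in 9-week virgins, a difference of -0.36 ± 0.18 (SE, limma, adjusted p = 0.674). The Gapdh excess was 1.97 to 3.77 on the retired breeder arrays, against 0.87 to 1.97 on the 9-week ones. With it as a covariate the median over the 41 genes was 0.21, and on probe sets ending plainly in _at it was 0.04. Without the retired breeder stem and 3-week mature luminal arrays it was -0.12, and the difference was 0.77 for Rps25, 0.80 for Rpl12, -0.29 for Rpl6 and -0.39 for Rpl7a. The summed log2 values of 11 leukocyte markers were 70.5 to 78.6 in retired breeders and 50.2 to 70.1 in 9-week virgins, with 0 of 11 called, and their part was not tested.

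Several members known for work outside the ribosome or used as reference genes were always named, and their ranges over the arrays are given here. Rpl13a, a large-subunit protein that in human cells also joins a complex silencing inflammatory mRNAs, stayed between 13.23 and 13.90 around a median of 13.57. Rpsa, the small-subunit protein also called the laminin receptor, stayed between 13.05 and 13.93 around a median of 13.52, lowest on the 3-week mature luminal array and highest on replicate 1 of the 9-week luminal progenitors. Rpl22 stayed between 13.04 and 13.67. Rps18 stayed between 13.24 and 13.64, and its replicate SD was 0.057, against 0.550 for Rplp0. Both are common reference genes, and 28 of the 41 genes had a replicate SD under 0.3. These values belong to the probe set used for each gene. Another probe set spanned 1.64 for Rps18 (mean 12.988), 3.03 for Rpl22 (mean 11.42) and 1.9 for Rpl13a (mean 11.81). A further Rpl13a probe set, with a mean of 13.234, spanned 0.71.

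**Figure D5:**
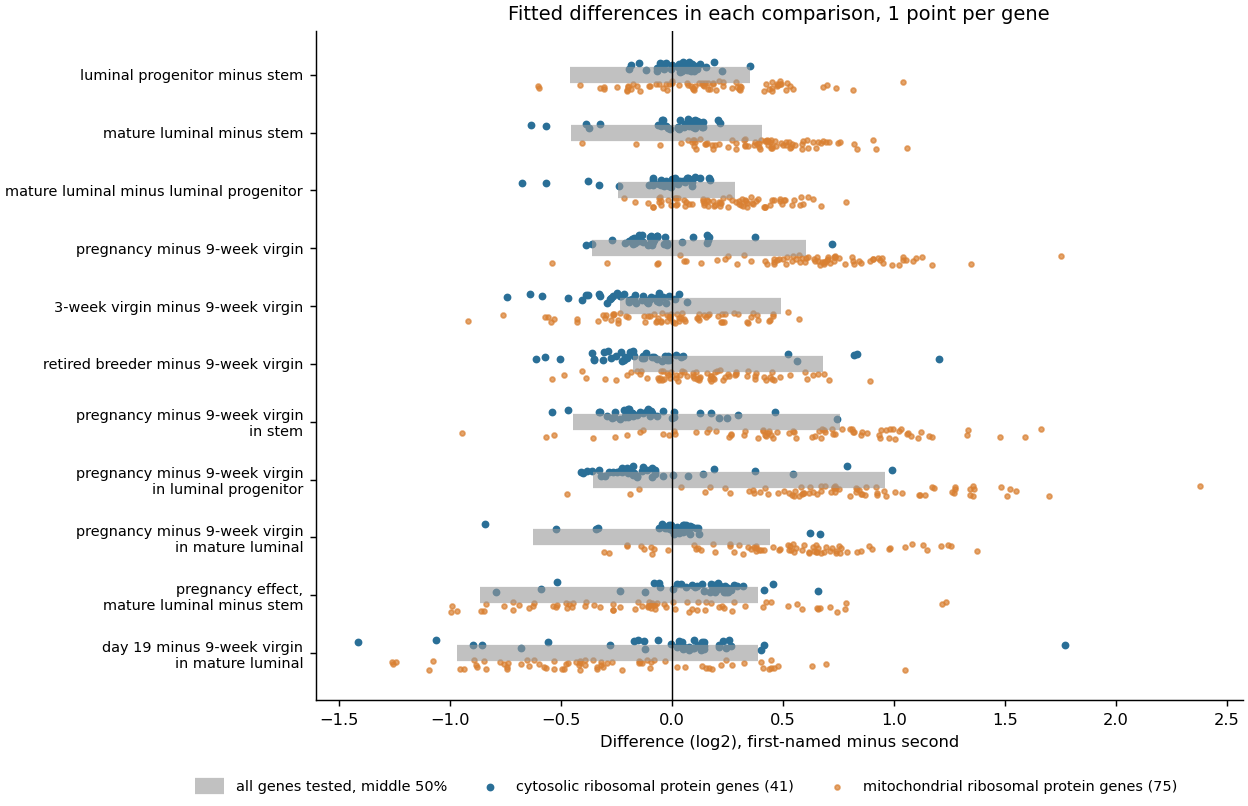
Fitted log2 differences of the 41 cytosolic ribosomal protein genes (blue) and of 75 mitochondrial ribosomal protein genes (orange) in each of the 11 comparisons, with 1 point per gene and the grey bar spanning the middle 50% of all 15378 genes. The cytosolic genes lie close to 0 in most comparisons, while in pregnancy minus 9-week virgin the mitochondrial genes have a median of 0.67. The gene sets differ in signal level.

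Mitochondrial ribosomal proteins are encoded in the nucleus too but build the separate ribosome of mitochondria. In pregnancy compared with 9-week virgins 9 of 75 genes rose (limma, adjusted p under 0.05), against 3.77% of all genes that rose, and 71 of 75 differences were positive with a median of 0.67. Mrpl47, of the large mitochondrial subunit, ran from 8.97 to 10.68 in pregnancy, against 8.04 to 8.94 in 9-week virgins, without overlap. It rose by 1.35 ± 0.24 (SE, limma, adjusted p = 0.00786). Mrpl34 rose by 1.75 ± 0.40 (SE, limma, adjusted p = 0.0234), with 8.57 to 11.14 in pregnancy and 7.36 to 9.95 in 9-week virgins. The others that rose were Mrpl51, Mrps15, Mrps26, Mrpl9, Mrps28, Mrpl13 and Mrps6. In the other 10 comparisons 0 of 75 passed. At day 19 in mature luminal cells their differences from 9-week virgins had a median of -0.35, against -0.24 for all genes, and 20 of 75 were positive. Day 19 and days 10 and 16 were not tested against each other. The difference between the mitochondrial and the cytosolic genes was not tested. Their signal levels also differed: the mitochondrial genes averaged 8.28 to 10.27 per array and the cytosolic ones 12.135 to 12.705. Brighter probe sets of the cytosolic genes spanned less, and the part of signal level was not tested.

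The count of 9 depended on single arrays, while the median of the 75 genes stayed between 0.28 and 0.91 over 26 alternatives. It was 30 without replicate 1 of the 9-week stem cells. Leaving out the day-10 array of luminal progenitors gave 2, as did leaving out the day-16 array of mature luminal cells, or replicate 1 of the 9-week mature luminal cells or of the 9-week luminal progenitors. It was 3 without the day-16 stem array or replicate 2 of the day-10 mature luminal cells. It was 4 without replicate 2 of the 9-week stem cells or replicate 1 of the day-10 stem cells, and 5 without replicate 2 of the 9-week luminal progenitors or of the day-10 stem cells. With the replicate number as a block it was 19 over all arrays and 0 over the numbered arrays in groups of 2, which lack the day-16 arrays. In the same contrast 4 of 10 basal markers and 5 of 9 proliferation genes rose and 4 of 7 mature luminal markers fell, while 0 of 11 leukocyte markers passed. Their part in the result was not tested.

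Genes that build ribosomes in the nucleolus or serve translation showed few calls. Of 54 ribosome biogenesis genes 1 passed in the comparison of luminal progenitors with stem cells, namely Nop2, an rRNA methyltransferase, against 4.38% of all genes called and 3.6% that were lower. It ran from 8.99 to 9.57 in luminal progenitors, against 9.87 to 11.20 in stem cells, and fell by 1.07 ± 0.21 (SE, limma, adjusted p = 0.0166). In the other 10 comparisons 0 of 54 passed. In pregnancy the median of the 54 genes was 0.24 with 42 positive. Lyar, a nucleolar protein, differed by 0.80 ± 0.25 and Ddx21, a nucleolar helicase, by -0.79 ± 0.22 (SE, limma, adjusted p = 0.0743 and 0.0511). Of 25 translation factors and other genes with TOP mRNAs, 0 passed in each of the 11 comparisons (limma). In 3-week compared with 9-week virgins their median was -0.17. There Eef1b2, an elongation factor subunit, differed by -0.31 ± 0.11 (SE, limma, adjusted p = 0.326). In retired breeders compared with 9-week virgins their median was -0.26, and Pabpc1, the poly(A)-binding protein, differed by -0.61 ± 0.20 (SE, limma, adjusted p = 0.632).

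Paralogues of ribosomal proteins, encoded by separate genes, were measured for 6 genes, of which 5 passed the filter and 0 were called in any of the 11 comparisons (limma). Rpl3l, the muscle form of Rpl3, stayed between 0.71 and 3.07 and did not pass the filter. Rpl39l, best known from testis, differed by -1.60 ± 0.52 between mature luminal cells and luminal progenitors (SE; limma, unadjusted p = 0.00962, adjusted p = 0.552). Rps27l, a target of p53, ran from 11.12 to 12.90 over the 23 arrays, Rpl22l1 from 11.52 to 12.96, Rpl7l1 from 9.16 to 10.35 and Rps4l from 5.34 to 7.53. Over the 16 group means, the 5 genes outside the members whose pattern was most like the mean of the 41 were Ppil4 (Pearson r of 0.917), 4933433G19Rik (0.914), Rps3a1 (0.909), Taf11 (0.904) and Eef1b2 (0.898). Rps3a1 encodes a small-subunit protein whose symbol falls outside the naming rule. These correlations are descriptions over points that share arrays and scaling.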

How the data were processed

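Expression was measured on 23 Affymetrix arrays of purified mammary epithelial cells. The authors deposited 1 log2 value per probe set and array, for 45101 probe sets. The labels' protocols give bead-selected mRNA and biotinylated cRNA. How the probes were summarised and scaled is not stated by the labels, and the log2 unit was read from the values. They were used as deposited, with no pseudocount. The number of arrays limits the precision.

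Genes were named through the platform annotation (34945 probe sets with 1 symbol, 932 with several). With limma 3.58.1 (R 4.3.3), 1 mean per combination of stage and cell type was estimated from the 23 arrays, and eBayes used an intensity trend (residual degrees of freedom 7, prior 4.74). Groups with a single array (9) borrow their spread from the 7 groups with 2. Tests were two-sided with Benjamini-Hochberg adjustment over 15378 genes, and the code was tested on simulated data. Values after ± are standard errors from this model. Cell types were averaged over the 5 stages that have both, and stages over the 3 cell types.

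The members, lists and comparisons were chosen with earlier results of these data known. Members are named when they have the smallest p per direction in a comparison (2 each), the widest (6) or narrowest (4) span of group means, or are among 9 genes always followed. Other names are said to be chosen after their values were seen, or come from the lists.

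Replicate numbers in the titles pair the arrays: the differences between replicates 2 and 1 correlated between groups in 21 of 21 pairs of groups, at 0.303 to 0.682 over the genes. The main model left this pairing out, and its standard errors and p-values therefore include it. A replicate block was fitted only as an alternative. Any 2 arrays differed in at least 98.5% of probe sets. Alternatives covered scaling, filters, choice of probe set, the Gapdh control as a covariate, the replicate block, and leaving out arrays.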

Additional observations from a re-analysis of the deposited data

How the results depend on the processing

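Over 233 combinations of a comparison and an alternative setting, 0 ribosomal protein genes passed the threshold (limma). The lowest adjusted p was 0.0627, and between 0 and 14 genes had an unadjusted p under 0.05. The median difference of the genes moved by less than the replicate SD of 0.142 in 219 of the 233 and by more in 14, and its sign turned in 28, among them pregnancy over the 3 cell types after quantile normalization (0.031). Quantile normalization gave medians of -0.017 for pregnancy in stem cells, 0.026 in luminal progenitors, 0.035 for the interaction and -0.087 for day 19. Centring each array on its median gave -0.497 for 3-week virgins, -0.32 for pregnancy in luminal progenitors and 0.295 for day 19. Probe sets ending plainly in _at, with 21 members, gave -0.219 for mature luminal minus stem cells, 0.04 for retired breeders and -0.15 for day 19. The Gapdh excess as a covariate gave 0.163 for 3-week virgins, 0.213 for retired breeders and 0.055 for pregnancy in luminal progenitors. Leaving out 1 array gave -0.115 to 0.138 for pregnancy in mature luminal cells, and the cause of these shifts was not tested. With the replicate number as a block over all arrays, unnumbered arrays counted with replicate 2, the medians were 0.085 and 0.083 for luminal progenitors and mature luminal cells against stem cells, -0.037 for pregnancy and -0.16 for 3-week virgins. Over the numbered arrays alone they were 0.11, 0.112, -0.008 and -0.09, while pregnancy in luminal progenitors, day 19 and retired breeders could not be fitted. The block changed no call of a ribosomal protein gene. The next alternatives were chosen after seeing the data. Nop2 passed in all 27 run for it (adjusted p from 0.00236 to 0.0488). The 9 mitochondrial genes that rose in pregnancy became 3 with array centring, 2 with the mean over probe sets, 4 on probe sets ending plainly in _at, 4 without the intensity trend, 2 with only the groups compared, 0 with the replicate block over numbered arrays, 19 with the block over all arrays, and 2 to 30 without 1 array. Precision is limited by 23 arrays, and probe sets above 13 lie close to the top of the scale.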
